A study of Mus musculus with 20 samples.

Results

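The 10 genes described here are targets of the transcription factor NRF2 and enzymes that remove reactive oxygen species, measured by RNA-seq in whole mouse lung. They were chosen by symbol from what is known of the pathway, with earlier results of these data already known. They comprise Gclc, Gclm and Slc7a11 of glutathione synthesis, and Txnrd1 and Srxn1 of the thioredoxin system. The others are Nqo1, the superoxide dismutase genes Sod2 and Sod3, the catalase gene Cat and the plasma glutathione peroxidase gene Gpx3. All 10 were among the 24062 genes listed, and all 10 passed the filter on low counts that left 15766 genes for testing. The design crosses 2 genotypes of Arg2, the gene of mitochondrial arginase, with 2 oxygen levels, and asks how chronic hypoxia alters the lung transcriptome with and without Arg2. The 4 groups were wild type (Arg2+/+) and knockout (Arg2-/-) mice kept for 28 days either in room air (21% oxygen) or in hypoxia (10% oxygen), with 4 samples each. All were adults of 8 to 10 weeks on a C57/129 background, and the labels say that both sexes were used without giving the sex of each sample. The position of the Arg2 deletion and its promoter or cell type are not stated, so the knockout is taken as the labels name it.

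NRF2, encoded by Nfe2l2, is held in the cytoplasm by KEAP1, which directs it to degradation. Oxidants and electrophiles modify KEAP1, and NRF2 then enters the nucleus, pairs with small MAF proteins and binds antioxidant response elements in promoters of genes for glutathione synthesis, thioredoxin reduction and quinone reduction. Superoxide dismutases turn superoxide into hydrogen peroxide, which catalase and the glutathione peroxidases and peroxiredoxins reduce to water. In the lung, the extracellular dismutase lies bound in the matrix of airways and vessels, and chronic hypoxia remodels those vessels.

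Per sample, 9.53e+06 to 6.33e+07 reads were counted in genes, and a count of 0 at those depths allows up to 0.0474 to 0.315 CPM (a gene's count scaled to a common library total), for counting error only. The lowest count of a member in any sample was 110, for Nqo1, and the highest 27818, for Gpx3. Some samples stood apart. Of reads counted in genes or in no gene, the share in genes was 25.4% for wild type room air 3, 37.7% for knockout hypoxia 3 and 35.5% for wild type hypoxia 1, and at least 40% in the others, up to 64.2%. Alignments that were not unique are left out of this share. They numbered 12.4, 6.33 and 7.13 per read counted in genes in those samples, and 2.34 to 4.55 in the others. Markers of other organs reached at least 50 CPM and at least 4 times the median sample in 5 samples: skeletal muscle in wild type room air 1, thymocytes in knockout room air 3 and 4, and pancreas in knockout hypoxia 1 and 2. Calls and list counts that change without either set are given both ways where they are described. Leaving out the 5 samples with other organ markers leaves 2 samples in each knockout group. Arg2 had 9.19 ± 1.92 CPM (mean ± SD, n = 4, as for all group means) in room air and 9.30 ± 2.25 in hypoxia where it was intact, and 5.62 ± 1.47 and 4.28 ± 0.912 in the knockout, and it was counted in every sample. The genotype difference was called in hypoxia (-1.13 ± 0.22, adjusted p = 0.00191) and not in room air (-0.70 ± 0.21, adjusted p = 0.0842), where the groups overlapped. The labels do not say whether the samples of a group came from separate animals, so a p-value measures the spread between these samples. In whole lung, fewer cells of a type and less RNA per cell cannot be told apart.

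Promoter sequence was looked up because shared elements define this pathway. RefSeq promoters (GRCm38.p6), read for the 250 bases before the start, were found for 8 members, with 3 windows for Txnrd1. Gclc and Sod3 had no entry. The core of the antioxidant response element was searched on both strands as TGACNNNGC or TGAGNNNGC. It was present in windows of 4 members, Srxn1, Slc7a11, Gclm and Txnrd1, and in 23.0% of the 32851 promoters read. The 5 matches run 5′ to 3′ along the gene's strand, with the element in capitals and 15 bases on each side. They are Srxn1 site 1 at chr2:152105351-152105389 (plus strand, element from -158 to -150 relative to the start), Srxn1 site 2 at chr2:152105464-152105502 (plus strand, -45 to -37), Slc7a11 at chr3:50443687-50443725 (minus strand, -97 to -89), Gclm at chr3:122245408-122245446 (plus strand, -134 to -126) and Txnrd1 at chr10:82859099-82859137 (plus strand, -92 to -84 of the start of that window).
Srxn1 site 1: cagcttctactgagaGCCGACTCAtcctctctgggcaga
Srxn1 site 2: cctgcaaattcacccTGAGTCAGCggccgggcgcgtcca
Slc7a11: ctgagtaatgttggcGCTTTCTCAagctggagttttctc
Gclm: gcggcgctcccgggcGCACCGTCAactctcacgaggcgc
Txnrd1: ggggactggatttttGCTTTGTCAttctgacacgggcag
Srxn1 site 2 carries the element in the forward direction, and the other 4 carry its reverse complement. None of the 5 stretches overlaps an annotated exon. The hypoxia response core, ACGTG or GCGTG on either strand, was found in windows of 4 members (Srxn1, Gclm, Txnrd1 and Sod2) and in 38.6% of all promoters. Cat, Nqo1 and Gpx3 had a match to neither. The RefSeq start is not always the first base of the gene as GENCODE gives it. The windows of Gpx3 (chr11:54902604-54902853) and Sod2 (chr17:13007589-13007838) lie inside those gene bounds. So does the Txnrd1 window with the antioxidant core. A match is a description of letters only, and elements farther from the start were not searched.

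Levels of the 10 genes differed far more between genes than between conditions. Per kilobase of annotated exon, the mean of the group levels was 293 CPM per kb for Gpx3, 143 for Cat, 70.2 for Gclc and 29.5 for Sod3. It was 17.2 for Txnrd1, 13.6 for Srxn1, 10.6 for Sod2, 6.19 for Nqo1, 4.89 for Gclm and 0.884 for Slc7a11. The sample ranges of neighbours in this order overlapped for Txnrd1 and Srxn1, for Srxn1 and Sod2, and for Nqo1 and Gclm, and not for the other 6 neighbours. Gclc, the catalytic subunit of glutamate-cysteine ligase, thus stood above its modifier Gclm in every sample per exon length. Slc7a11 varied most across the 16 samples, 4.12-fold between the highest and the lowest, ahead of Gpx3 at 2.41-fold and Gclc at 2.35-fold. Txnrd1, at 1.31-fold, varied least.

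**Figure D1:**
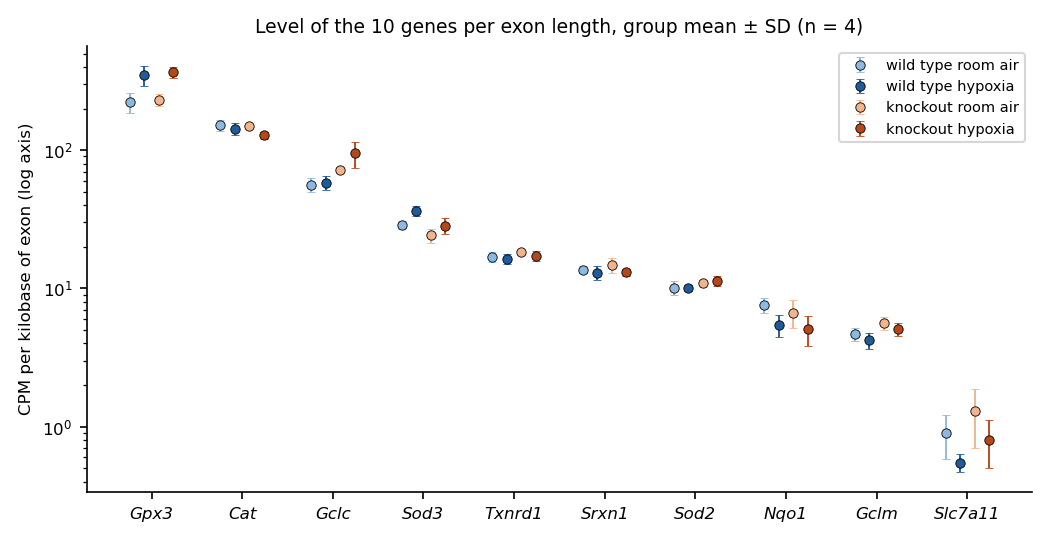
Level of each gene in CPM per kilobase of exon (log axis) as the mean and SD of 4 samples in each of the 4 groups, with genes ordered by level. Gpx3 is highest, its hypoxia groups lie above its room air groups in both genotypes, and Slc7a11 is lowest with the widest error bars.

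Tests used edgeR's quasi-likelihood test with Benjamini-Hochberg adjustment over all genes tested, and a gene is called at an adjusted p under 0.05. Hypoxia raised Gpx3 in wild type lungs and Gpx3 and Gclc in knockout lungs. Between genotypes, no member was called in room air, and in hypoxia Gclc was higher and Sod3 lower in the knockout. The other 7 members were not called in any comparison.

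In wild type, 1 of 10 members was called for hypoxia, higher, where 4.98% of all genes were called and 2.67% were higher and 2.31% lower. In knockout lungs 2 members were called, both higher, against 17.0% of all genes in either direction, 7.94% higher and 9.10% lower, so that in either direction the share of members lies near the background. Between genotypes in room air 0 members were called by edgeR, with 3 at an unadjusted p under 0.05 (Gclc, Gclm and Sod3) and 0 by DESeq2 and by limma voom; of all genes 0.0761% were called, 0.0571% higher and 0.0190% lower. Between genotypes in hypoxia 2 were called, 1 higher and 1 lower, against 23.0% of all genes, 11.0% higher and 12.1% lower, so that share too lies near the background. For the difference between the hypoxia effects of the genotypes, 0 members were called by edgeR, DESeq2 and limma voom and 0 had an unadjusted p under 0.05, while 0.501% of all genes were called, 0.279% with a higher and 0.222% with a lower value. The median log2 fold change of the 10 was -0.06 for wild type hypoxia and -0.11 for knockout hypoxia, each against its room air, beside -0.01 and 0.00 for all genes. For knockout against wild type it was 0.11 at 21% oxygen and 0.07 at 10% oxygen, beside -0.02 and -0.01. The 10 genes did not move one way as a group: in wild type hypoxia 3 had a higher and 7 a lower fitted value, and in knockout hypoxia 4 and 6.

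**Figure D2:**
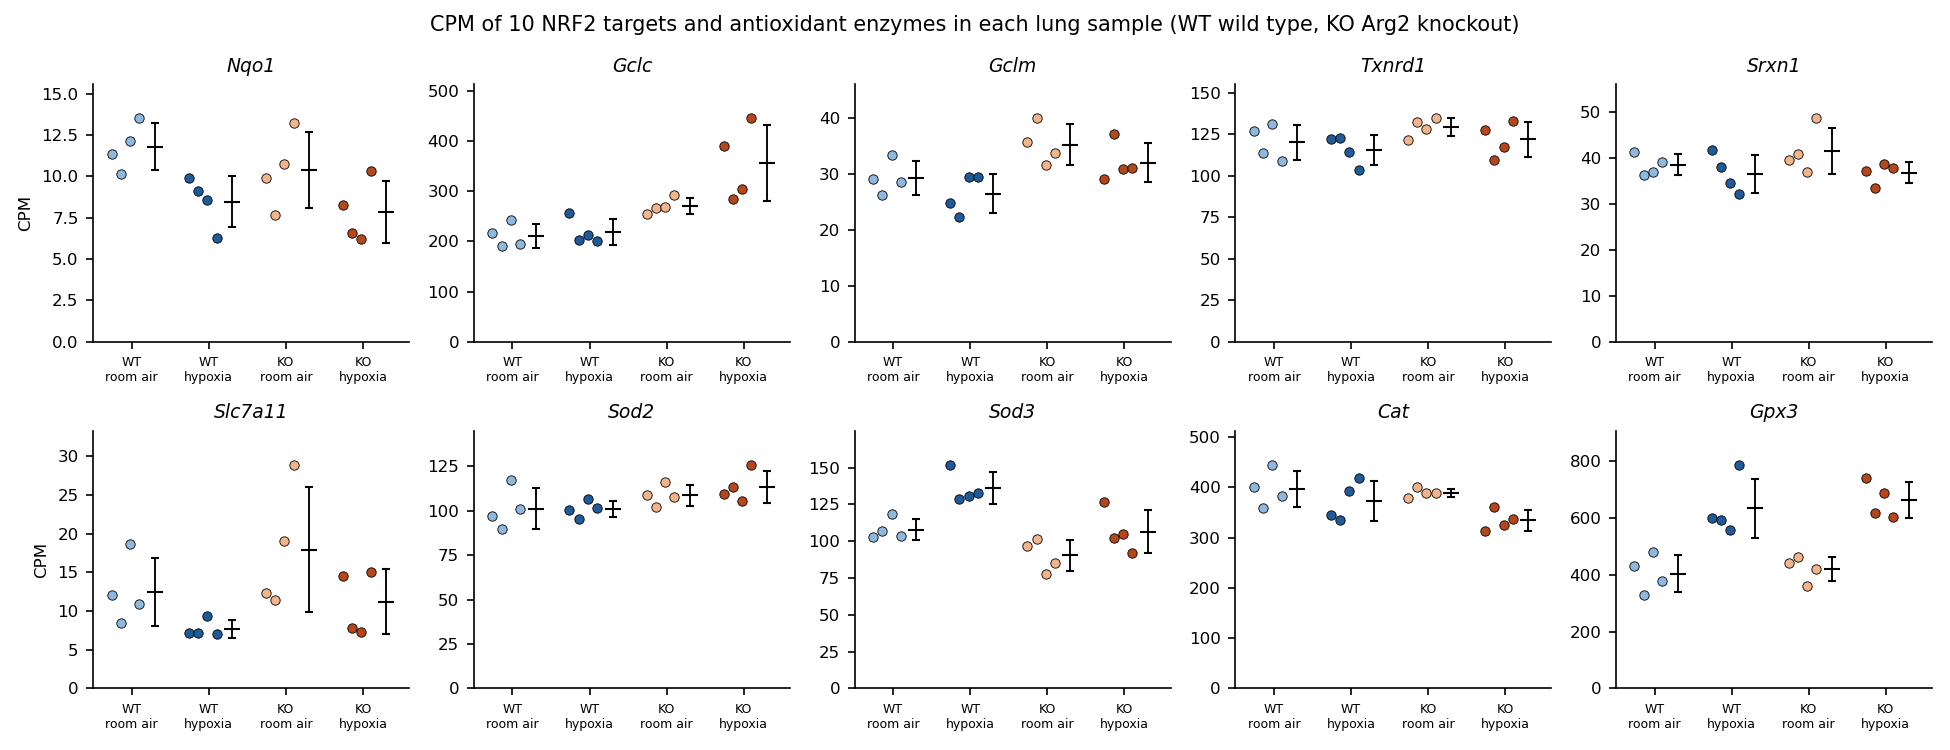
CPM of each of the 10 genes in every sample, in 4 groups of 4 samples, with the group mean and SD beside the points (axes start at 0). Gpx3 in hypoxia lies above room air in both genotypes without overlap, Gclc in knockout hypoxia lies above all wild type samples, and Slc7a11 is spread widely within groups.

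**Figure D3:**
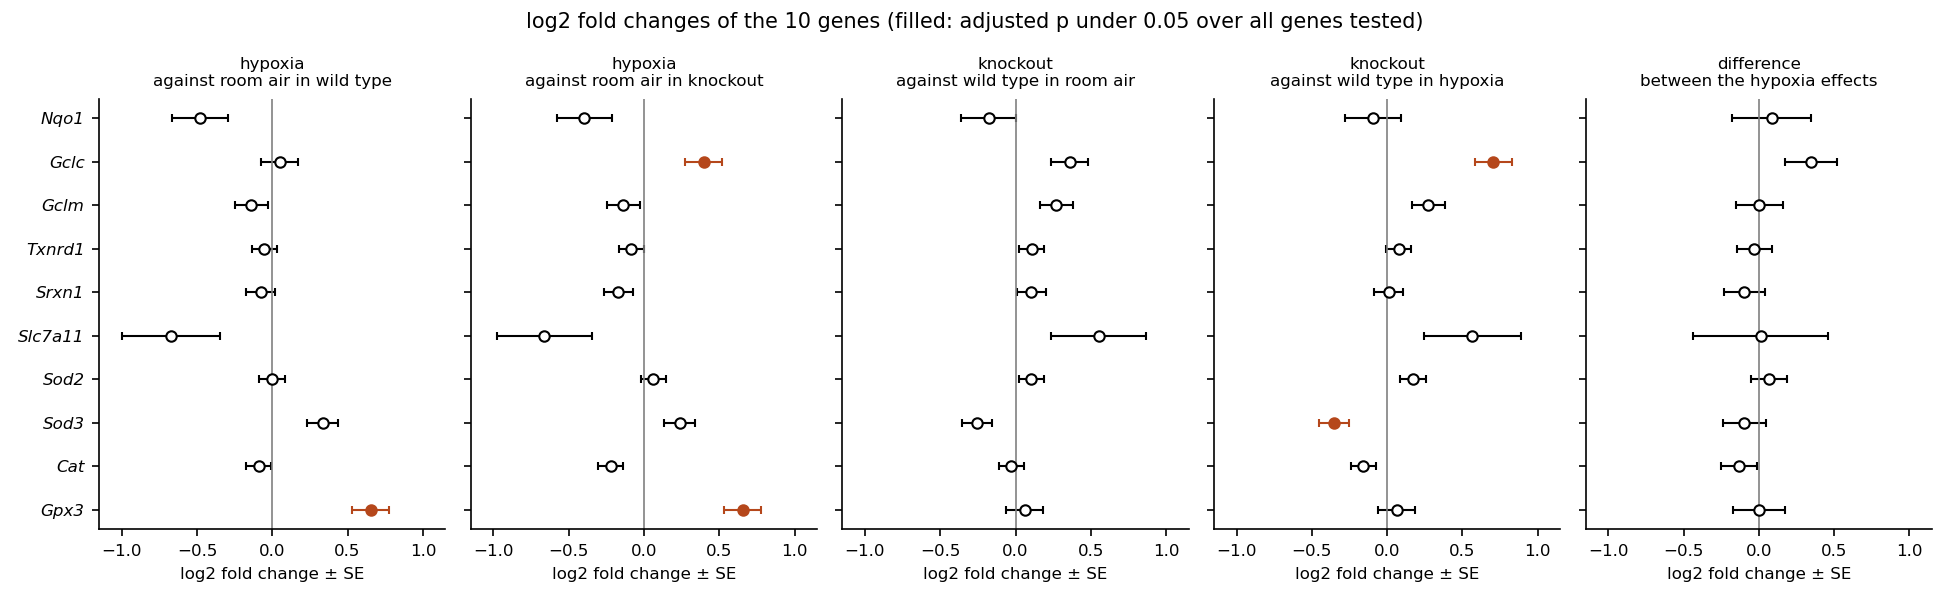
Log2 fold change and SE of each of the 10 genes in the 5 comparisons, with filled points for an adjusted p under 0.05. The filled points are Gpx3 in both hypoxia comparisons, Gclc in the knockout for hypoxia and between genotypes in hypoxia, and Sod3 between genotypes in hypoxia.

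Glutathione synthesis starts with glutamate-cysteine ligase, whose catalytic subunit is encoded by Gclc (chromosome 9, 77754535 to 77794485, plus strand of GRCm38). In wild type lungs the 4 room air samples had 218, 190, 243 and 195 CPM and the 4 hypoxia samples 256, 204, 214 and 201 CPM. Knockout lungs had 256, 266, 269 and 292 CPM in room air and 389, 285, 305 and 446 CPM in hypoxia. The wild type groups overlapped, every knockout sample exceeded the wild type samples of the same oxygen level, and knockout hypoxia 1 and 4 were the highest of all. In hypoxia the knockout mean was 356 ± 75.0 CPM against 219 ± 25.6 in wild type (log2 fold change 0.70 ± 0.12 SE, adjusted p = 0.00107), a call kept in all 29 alternatives of processing. In room air the means were 271 ± 15.5 and 211 ± 24.1 (0.36 ± 0.12, adjusted p = 0.109). The groups did not overlap there either, as for 10.4% of all genes, but the test was not passed. Without wild type room air 3 it was passed (0.43, adjusted p = 0.0343).

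Within the knockout, hypoxia raised Gclc by 0.40 ± 0.12 on the log2 scale (adjusted p = 0.0321), with 3 of 4 hypoxia samples above all room air samples. In wild type the value was 0.05 ± 0.12 (adjusted p = 0.898). The difference between these effects was 0.35 ± 0.17 and was not called (adjusted p = 0.388). The knockout call depended on single samples: it was lost without knockout room air 1 (0.37), 2 (0.39) or 3 (0.39), and without knockout hypoxia 1 (0.35) or 4 (0.27). It was also lost with library totals in place of scaling factors, with the compared groups only, with the B libraries only and without the 5 samples with other organ markers (0.53, adjusted p = 0.106).

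Gclm encodes the modifier subunit, which raises the activity of the ligase (chromosome 3, 122245557 to 122270732, plus strand). The gene models Gm17494 on the opposite strand and Gm6061 on the same strand, which the files do not count, overlap 4.71% of its exon bases. Wild type lungs had a mean of 29.3 ± 2.97 CPM in room air and 26.5 ± 3.54 in hypoxia, and knockout lungs 35.2 ± 3.58 and 32.0 ± 3.52. The groups overlapped in every comparison. The genotype differences were 0.27 ± 0.11 in room air (adjusted p = 0.16) and 0.27 ± 0.11 in hypoxia (adjusted p = 0.0785), and the second passed only without wild type hypoxia 3 (0.35, adjusted p = 0.0425). Hypoxia gave -0.14 ± 0.11 in each genotype, with adjusted p = 0.611 in wild type and 0.45 in the knockout.

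Slc7a11 encodes the light chain of the exchanger that brings in cystine for glutathione (chromosome 3, 49892526 to 50443614, minus strand). In wild type lungs the 4 room air samples had 12.0, 8.40, 18.7 and 10.8 CPM and the 4 hypoxia samples 7.09, 7.15, 9.34 and 7.02 CPM. Knockout lungs had 12.3, 11.4, 19.0 and 28.9 CPM in room air and 14.6, 7.85, 7.23 and 15.1 CPM in hypoxia. Hypoxia means were lower than room air means in both genotypes, by -0.67 ± 0.33 in wild type (adjusted p = 0.322) and -0.66 ± 0.31 in the knockout (adjusted p = 0.172), but the groups overlapped and the test was not passed. Knockout room air 3 and 4, which also held thymocyte markers, were the highest of their group. Of all samples, room air 4 of the knockout had the most summed neutrophil markers (1237 CPM) and room air 3 the most heart muscle markers (942 CPM). Wild type room air 3, the highest of its group, had 19.0 CPM of thymocyte and 625 CPM of neutrophil markers. Wild type hypoxia 2 had 1207 CPM of neutrophil markers and 7.15 CPM of Slc7a11. The part of these cells in the Slc7a11 values was not tested. Without the 5 samples with other organ markers, the genotype value in room air went from 0.55 ± 0.32 to -0.05. Slc3a2, the heavy chain of the same exchanger, fell in wild type hypoxia from 202 ± 12.4 to 153 ± 13.9 CPM (-0.40 ± 0.09, adjusted p = 0.00731), a call lost without the 3 samples with few reads in genes (-0.31, adjusted p = 0.0747).

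Txnrd1 encodes the cytosolic thioredoxin reductase, a selenoprotein (chromosome 10, 82833951 to 82897712, plus strand). Wild type lungs had a mean of 120 ± 10.4 CPM in room air and 116 ± 9.12 in hypoxia, and knockout lungs 129 ± 5.65 and 122 ± 10.5. Its fitted differences lay between -0.08 and 0.11 on the log2 scale in the 4 comparisons of groups, with adjusted p from 0.493 to 0.822. Its samples ranged from 103 to 135 CPM, and all pairs of groups compared overlapped.

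Srxn1 encodes sulfiredoxin, which restores peroxiredoxins that peroxide has over-oxidised (chromosome 2, 152105516 to 152111376, plus strand). It is the member with 2 antioxidant cores near its start, given with the promoters. Its samples ranged from 32.2 to 48.8 CPM, with means of 38.5 ± 2.29 and 36.7 ± 4.14 in wild type room air and hypoxia and 41.6 ± 5.07 and 36.9 ± 2.31 in the knockout. Hypoxia gave -0.08 ± 0.10 in wild type (adjusted p = 0.781) and -0.17 ± 0.10 in the knockout (adjusted p = 0.249). The groups overlapped, and no comparison was called.

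Nqo1 encodes the quinone reductase that serves as a common readout of NRF2 (chromosome 8, 107388225 to 107403206, minus strand). In wild type lungs the 4 room air samples had 11.3, 10.1, 12.1 and 13.5 CPM and the 4 hypoxia samples 9.90, 9.10, 8.55 and 6.29 CPM. Knockout lungs had 9.88, 7.64, 10.8 and 13.2 CPM in room air and 8.26, 6.56, 6.21 and 10.3 CPM in hypoxia. Every wild type hypoxia sample lay below every wild type room air sample, as for 3 members and 8.24% of all genes in either direction, while the knockout groups overlapped. The log2 fold changes, -0.48 ± 0.19 in wild type (adjusted p = 0.169) and -0.40 ± 0.18 in the knockout (adjusted p = 0.155), did not pass the test. The fitted genotype values were -0.18 ± 0.18 in room air and -0.09 ± 0.19 in hypoxia, with adjusted p of 0.617 and 0.758.

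Sod2 encodes the manganese dismutase of mitochondria (chromosome 17, 13006846 to 13040063, plus strand). It stood at 101 ± 11.7 and 101 ± 4.55 CPM in wild type room air and hypoxia, and at 109 ± 5.80 and 114 ± 8.91 CPM in the knockout. The value for hypoxia was -0.00 ± 0.08 in wild type (adjusted p = 0.992). The value between genotypes in hypoxia was 0.17 ± 0.08 (adjusted p = 0.144), and it was -0.0006 once a trend with GC content was removed from each sample. No comparison was called, and the groups overlapped in all of them.

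Sod3 encodes the extracellular dismutase (chromosome 5, 52363791 to 52371418, plus strand). In wild type lungs the 4 room air samples had 103, 107, 118 and 104 CPM and the 4 hypoxia samples 152, 128, 130 and 133 CPM. Knockout lungs had 96.9, 102, 78.0 and 84.9 CPM in room air and 126, 102, 105 and 91.7 CPM in hypoxia. Wild type hypoxia lay above wild type room air without overlap, and knockout samples lay below the wild type samples of the same oxygen level without overlap. In either direction, 8.24% of all genes did not overlap between the oxygen levels in wild type. Between genotypes this share was 10.4% in room air and 25.4% in hypoxia. In hypoxia the knockout mean was 106 ± 14.6 CPM against 136 ± 10.9 in wild type (-0.35 ± 0.10, adjusted p = 0.0188). That call was lost without wild type hypoxia 1 (-0.30), the highest sample of its group, without knockout hypoxia 4 (-0.29), without the 3 samples with few reads in genes (-0.29), with library totals only (-0.32) and with the GC trend removed (-0.27).

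For hypoxia, Sod3 gave 0.33 ± 0.10 in wild type (adjusted p = 0.0654) and 0.24 ± 0.10 in the knockout (adjusted p = 0.12), neither of which passed. In wild type, DESeq2 called it (0.34, adjusted p = 0.0343), as did 4 of the other alternatives, among them those without wild type room air 3 (0.38) and without knockout hypoxia 1 (0.34). In the knockout the value was -0.01 without the 5 samples with other organ markers. Summed smooth muscle markers, 8 genes of which none was at 0 in all samples of a group, ranged from 639 to 917 CPM in room air and 762 to 1021 in hypoxia for wild type, and from 672 to 764 and 583 to 871 for the knockout. In the comparison where Sod3 was called lower, knockout against wild type in hypoxia, 3 of these 8 were also called lower, where 12.1% of all genes were. Smooth muscle was not alone in this: 4 of 9 alveolar type II, 3 of 7 ciliated and 8 of 9 lymphocyte markers were also lower. Of 8 endothelial markers 4 were higher and 2 lower. The part of smooth muscle cells in the Sod3 value was not tested.

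Cat encodes catalase, which splits hydrogen peroxide in peroxisomes (chromosome 2, 103453849 to 103485160, minus strand). In wild type lungs the 4 room air samples had 400, 359, 445 and 384 CPM and the 4 hypoxia samples 345, 336, 393 and 418 CPM. Knockout lungs had 379, 400, 389 and 388 CPM in room air and 312, 362, 325 and 337 CPM in hypoxia. The wild type groups overlapped. In the knockout every hypoxia sample lay below every room air sample, as for 24.4% of all genes in either direction, with means of 334 ± 21.0 and 389 ± 8.45 CPM (-0.22 ± 0.08, adjusted p = 0.081). It was called with upper quartile scaling (-0.25), with library totals (-0.28) and with the compared groups only (-0.23). Ciliated cell markers, 7 genes with none at 0 in all samples of a group, summed to 383 to 452 CPM in knockout room air and 294 to 347 CPM in knockout hypoxia, against 380 to 467 and 325 to 482 in wild type. Their part in the Cat values was not tested.

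Gpx3 encodes the selenium-dependent glutathione peroxidase that is secreted into plasma (chromosome 11, 54902453 to 54910377, plus strand). In wild type lungs the 4 room air samples had 430, 328, 479 and 380 CPM and the 4 hypoxia samples 600, 593, 559 and 788 CPM. Knockout lungs had 442, 461, 362 and 419 CPM in room air and 741, 620, 688 and 604 CPM in hypoxia. All 8 hypoxia samples exceeded all 8 room air samples. Within a genotype, the oxygen levels did not overlap for 8.24% of all genes in wild type and 24.4% in the knockout, in either direction. The mean rose from 404 ± 64.8 to 635 ± 104 CPM in wild type (0.65 ± 0.12, adjusted p = 0.00283) and from 421 ± 43.2 to 663 ± 63.3 CPM in the knockout (0.66 ± 0.12, adjusted p = 0.00101). In wild type the call was kept in all 29 alternatives, with values from 0.53 to 0.77. In the knockout it was kept in 28 and lost without the 5 samples with other organ markers (0.52, adjusted p = 0.122), a setting that leaves 2 samples in each knockout group.

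The genotypes gave nearly the same Gpx3 estimate for hypoxia: the difference was 0.00 ± 0.17 (adjusted p = 0.995). Between genotypes the values were 0.06 ± 0.12 in room air and in hypoxia, with adjusted p of 0.83 and 0.749. Macrophage markers, 9 genes with none at 0 in all samples of a group, summed to 957 to 1170 CPM in wild type lungs in room air and 1185 to 1458 in hypoxia, and to 1021 to 1159 and 1331 to 1703 in knockout lungs. The median log2 fold change of the 9 with hypoxia was 0.06 in wild type and 0.04 in the knockout. Of the 9, 1 was called higher in wild type, and 2 higher and 1 lower in the knockout. Their part in the Gpx3 values was not tested. Sepp1, the plasma selenoprotein that carries selenium to tissues, went the other way. It fell in hypoxia from 1231 ± 241 to 880 ± 109 CPM in wild type (-0.48 ± 0.11, adjusted p = 0.0138) and from 1431 ± 59.0 to 1114 ± 60.0 CPM in the knockout (-0.36 ± 0.11, adjusted p = 0.0308). The wild type call was lost without wild type hypoxia 2 (-0.42) and in 3 other settings. The knockout call was lost without any of 7 samples, all of the knockout groups except room air 2, with values from -0.38 to -0.32, and without the 5 samples with other organ markers (-0.27).

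Across the 16 samples, on log2 CPM, the members did not all vary together. Nqo1, Txnrd1, Srxn1 and Slc7a11 were positively correlated in every pair, from 0.45 to 0.72, while some pairs with other members were negative. The highest Pearson correlations between members were 0.73 for Gclc and Sod2, 0.72 for Txnrd1 and Slc7a11, 0.64 for Txnrd1 and Srxn1 and 0.64 for Nqo1 and Slc7a11, and the lowest was -0.71 for Nqo1 and Gpx3. These points share their libraries and group differences. Once group means were removed, the highest were 0.88 for Gclm and Cat, 0.81 for Gclc and Txnrd1, 0.73 for Gclc and Slc7a11 and 0.72 for Nqo1 and Slc7a11, and Gclc and Sod2 had 0.53. There Gclc, Nqo1, Txnrd1, Srxn1 and Slc7a11 were positive in every pair, from 0.27 to 0.81, and Gclm was negative with each of them. Among genes of at least 1 CPM, those most like Gclc were Dnajc3 (0.92), Pdia4 (0.91) and Narg2 (0.91), and those most like Gpx3 were Tacc1 (0.94), B3gnt3 (0.92) and 9430020K01Rik (0.92). Sod3 was most like Bgn (0.94), Plscr3 (0.92) and Coro1c (0.89), and Sod2 like Ggnbp2 (0.94), Nab1 (0.92) and Katnbl1 (0.92). Cat was most like Iqcg (0.94), Stk33 (0.91) and Lrriq1 (0.90), and Gclm like Pgm2l1 (0.89), Kitl (0.89) and Vamp4 (0.87). Txnrd1 was most like Tspan5 (0.85), Tnfrsf12a (0.84) and Medag (0.83), and Srxn1 like Sephs1 (0.90), Mir22hg (0.84) and Nsun3 (0.80). Nqo1 was most like Acat1 (0.86), and Slc7a11 like Tiparp (0.84), Cytip (0.83) and Chac1 (0.83). No member was among the genes most like another member.

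Genes that control NRF2, its further targets and related redox lists were counted in the same way, and their counts are to be read against all genes: hypoxia gave calls for 4.98% of them among wild type and 17.0% among knockout lungs, and 23.0% were called between genotypes in hypoxia. No list was tested against the rest, and the lists were chosen with earlier results of these data known. Of 12 control genes, 1 rose and 2 fell with hypoxia in the knockout, and 3 were higher and 1 lower in the knockout than in wild type in hypoxia. Without the 5 samples with other organ markers these counts were 0 and 1, and 2 and 1. Without the 3 samples with few reads in genes they were 1 and 2, and 1 and 0. Nfe2l2 itself stood at 173, 172, 191 and 186 CPM in wild type hypoxia and at 263, 243, 250 and 297 CPM in knockout hypoxia, without overlap (0.55 ± 0.12, adjusted p = 0.00486, kept in all alternatives). With hypoxia in the knockout its value was 0.28 and in wild type -0.20, neither called (adjusted p = 0.134 and 0.45). Keap1 was not called in any comparison, with values from -0.20 to 0.15. Bach2, a repressor that competes with NRF2 for its elements and is known from B cells, fell with hypoxia in the knockout from 24.9 ± 3.84 to 15.3 ± 3.79 CPM (-0.70 ± 0.17, adjusted p = 0.00779).

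Of 29 further NRF2 targets, hypoxia in the knockout raised 1 and lowered 8, with a median of -0.14 on the log2 scale. Between genotypes in hypoxia 3 were higher and 7 lower, with a median of -0.12. Without the 5 samples with other organ markers, which leaves 2 samples in each knockout group, these counts were 1 and 1, and 1 and 2. Without the 3 samples with few reads in genes they were 1 and 5, and 3 and 6. Calls for hypoxia in the knockout that were lost without the 5 samples had larger or smaller estimates there. Tkt was at -0.37 against -0.27 with all samples, and Gsta4 at -0.31 against -0.46. In wild type 0 were called for hypoxia by edgeR, DESeq2 and limma voom, with 2 at an unadjusted p under 0.05. The riser was Hmox1, the heme oxygenase gene, at 29.4, 33.7, 32.6 and 36.9 CPM in knockout room air and 58.1, 48.7, 57.3 and 60.2 CPM in knockout hypoxia. The knockout hypoxia samples exceeded all 12 others. Hmox1 was also the only one of the 29 called for the difference between the hypoxia effects (0.74 ± 0.12, adjusted p = 0.0098), a call lost without the 3 samples with few reads in genes (0.70, adjusted p = 0.0821).

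Among the targets that fell in knockout hypoxia were Aldh3a1, an aldehyde dehydrogenase gene, from 37.7 ± 3.12 to 17.9 ± 1.02 CPM (-1.08 ± 0.17, adjusted p = 0.000241), and Gsta4, a glutathione transferase gene, by -0.46 ± 0.11 (adjusted p = 0.00448). Gsr, which regenerates reduced glutathione, fell by 0.42 on the log2 scale (SE 0.11, adjusted p = 0.0135), a call lost without knockout room air 4 (-0.32), without knockout hypoxia 2 (-0.37) and without the 5 samples with other organ markers (-0.25). The Gsta4 call was lost only without those 5 samples. Club cell markers, 7 genes with none at 0 in all samples of a group, summed to 21036 to 23070 CPM in knockout room air and 17768 to 19978 CPM in knockout hypoxia. In wild type they summed to 18527 to 29261 and 17714 to 24400 CPM. Only 1 of the 7 was called lower with hypoxia in each genotype, with a median log2 fold change of -0.19 in the knockout and -0.12 in wild type. Their part in these falls was not tested.

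**Figure D4:**
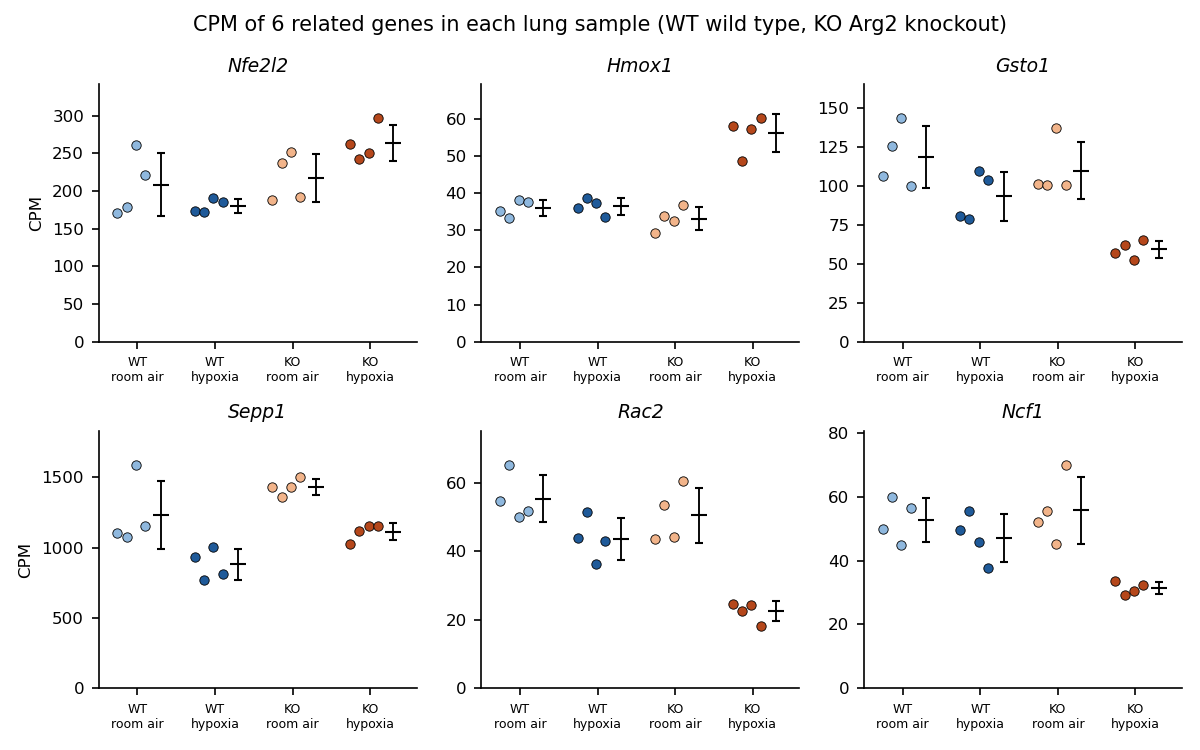
CPM of 6 related genes in every sample, in 4 groups of 4 samples, with the group mean and SD beside the points (axes start at 0). Nfe2l2 in knockout hypoxia lies above wild type hypoxia, Hmox1 in knockout hypoxia lies above all other samples, and Gsto1, Rac2 and Ncf1 in knockout hypoxia lie below all other samples, while the Sepp1 mean of each genotype is lower in hypoxia than in room air.

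Of 12 other enzymes of superoxide and peroxide removal, among them Sod1, Gpx1 and the peroxiredoxins, 0 were called for hypoxia in wild type (0 also by DESeq2 and limma voom, 3 at an unadjusted p under 0.05). In the knockout 1 fell, Gpx2 of epithelia, from 18.1 ± 2.03 to 11.6 ± 0.904 CPM (-0.64 ± 0.11, adjusted p = 0.000414, kept in all alternatives). The genotypes differed in hypoxia in 1 of the 12, Prdx6, a peroxiredoxin gene, at 997 ± 58.7 CPM in the knockout and 793 ± 77.3 in wild type (0.33 ± 0.10, adjusted p = 0.0279). That call was lost without wild type hypoxia 1 (0.26), knockout hypoxia 2 (0.33) or 4 (0.29), without the 3 samples with few reads in genes (0.28) and without the 5 with other organ markers (0.36). Of 17 tested genes of glutathione handling, 1 fell with hypoxia in wild type, and 1 rose and 2 fell in the knockout, a share near that of all genes. Between genotypes in hypoxia 1 was higher and 1 lower. Without the 3 samples with few reads in genes, 0 were called in wild type, 2 rose and 1 fell in the knockout, and 0 were higher and 1 lower between genotypes. Without the 5 samples with other organ markers, 0 rose and 1 fell in each genotype, and 0 were higher and 1 lower between genotypes. The omega glutathione transferase gene Gsto1 stood at 101, 100, 137 and 101 CPM in knockout room air and at 57.1, 62.1, 52.7 and 65.1 CPM in knockout hypoxia, where it lay below all other samples (-0.89 ± 0.14, adjusted p = 0.000171). The call held in all alternatives. Of 12 further genes of the thioredoxin system, 0 were called for hypoxia in either genotype by edgeR, with 2 at an unadjusted p under 0.05 in each; DESeq2 called 1 in each genotype and limma voom 1 in wild type. Between genotypes in hypoxia 1 was higher and 2 lower, against 1 and 0 without the 3 samples with few reads in genes and 0 and 1 without the 5 with other organ markers.

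Of 10 tested genes that produce oxidants, 5 fell and 0 rose with hypoxia in the knockout, where 9.10% of all genes fell. In hypoxia, 1 was higher and 4 lower in the knockout than in wild type, where 12.1% of all genes were lower. Without the 5 samples with other organ markers 2 were lower and 0 higher in each comparison, and without the 3 samples with few reads in genes 4 and 3 were lower and 0 higher. Rac2, a GTPase of the phagocyte oxidase, stood at 43.6, 53.5, 44.2 and 60.6 CPM in knockout room air and at 24.5, 22.6, 24.4 and 18.2 CPM in knockout hypoxia (-1.17 ± 0.13, adjusted p = 6.18e-06). The oxidase subunit gene Ncf1 fell by 0.82 on the log2 scale (SE 0.13, adjusted p = 0.000223). The phagocyte oxidase is used by neutrophils and macrophages. The summed macrophage markers, given with Gpx3, were higher in knockout hypoxia than in knockout room air. The median log2 fold change of these 9 markers was 0.04 there, with 2 called higher and 1 lower. The lymphocyte markers, 9 of 10 measured and none at 0 in all samples of a group, summed to 105 to 123 CPM in knockout room air and 29.7 to 49.2 CPM in knockout hypoxia, against 94.3 to 189 and 61.6 to 99.3 in wild type. Neutrophil markers, 6 of 7 measured and none at 0 in all samples of a group, summed to 333 to 1237 and 267 to 348 CPM in knockout room air and hypoxia, against 224 to 625 and 418 to 1207 in wild type. With hypoxia in the knockout, 9 of 9 lymphocyte and 3 of 6 neutrophil markers were called lower, where 9.10% of all genes were. In wild type 2 lymphocyte and 0 neutrophil markers were, where 2.31% of all genes were. Their part in these falls was not tested.

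A list of 13 genes held Atf4 itself and targets of its product, ATF4, which also acts on Slc7a11. Of the 13, 2 rose and 1 fell with hypoxia in wild type, and 3 rose and 2 fell in the knockout. Between genotypes in hypoxia, 3 were higher and 0 lower in the knockout. Without the 3 samples with few reads in genes these were 1 and 0, 2 and 1, and 2 and 0, and without the 5 with other organ markers 1 and 1, 2 and 0, and 3 and 0. Among the 3 that rose in the knockout was Ddit3, from 20.2 ± 2.11 to 33.4 ± 2.63 CPM (0.72 ± 0.13, adjusted p = 0.00065). The 2 that fell there were Atf4 itself (-0.51 to -0.32 over the 29 alternatives, called in 28) and Chac1 (-1.29 to -0.69, called in 19). Slc7a11 in the same comparison was at -0.66 and not called. Of 8 genes of mitochondrial NADPH supply, 1 fell with hypoxia in wild type and 1 rose in the knockout, and of 9 genes of selenoprotein supply 1 fell in each genotype, Sepp1. Between genotypes in hypoxia 0 were higher and 1 lower for NADPH supply, and 1 higher and 2 lower for selenoprotein supply. Without the 3 samples with few reads in genes, neither list had a call for hypoxia in wild type, the knockout counts were again 1 riser and 1 that fell, and selenoprotein supply had 1 higher and 1 lower between genotypes. Without the 5 with other organ markers, 1 gene of NADPH supply rose and 0 fell in wild type, no gene of either list was called for hypoxia in the knockout, and selenoprotein supply had no call in wild type and 0 higher and 1 lower between genotypes. Between genotypes in room air 0 of the 119 genes of these lists were called by edgeR, with 12 at an unadjusted p under 0.05. DESeq2 called 2 and limma voom 4, and 5 higher and 5 lower were called without the 3 samples with few reads in genes.

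**Figure D5:**
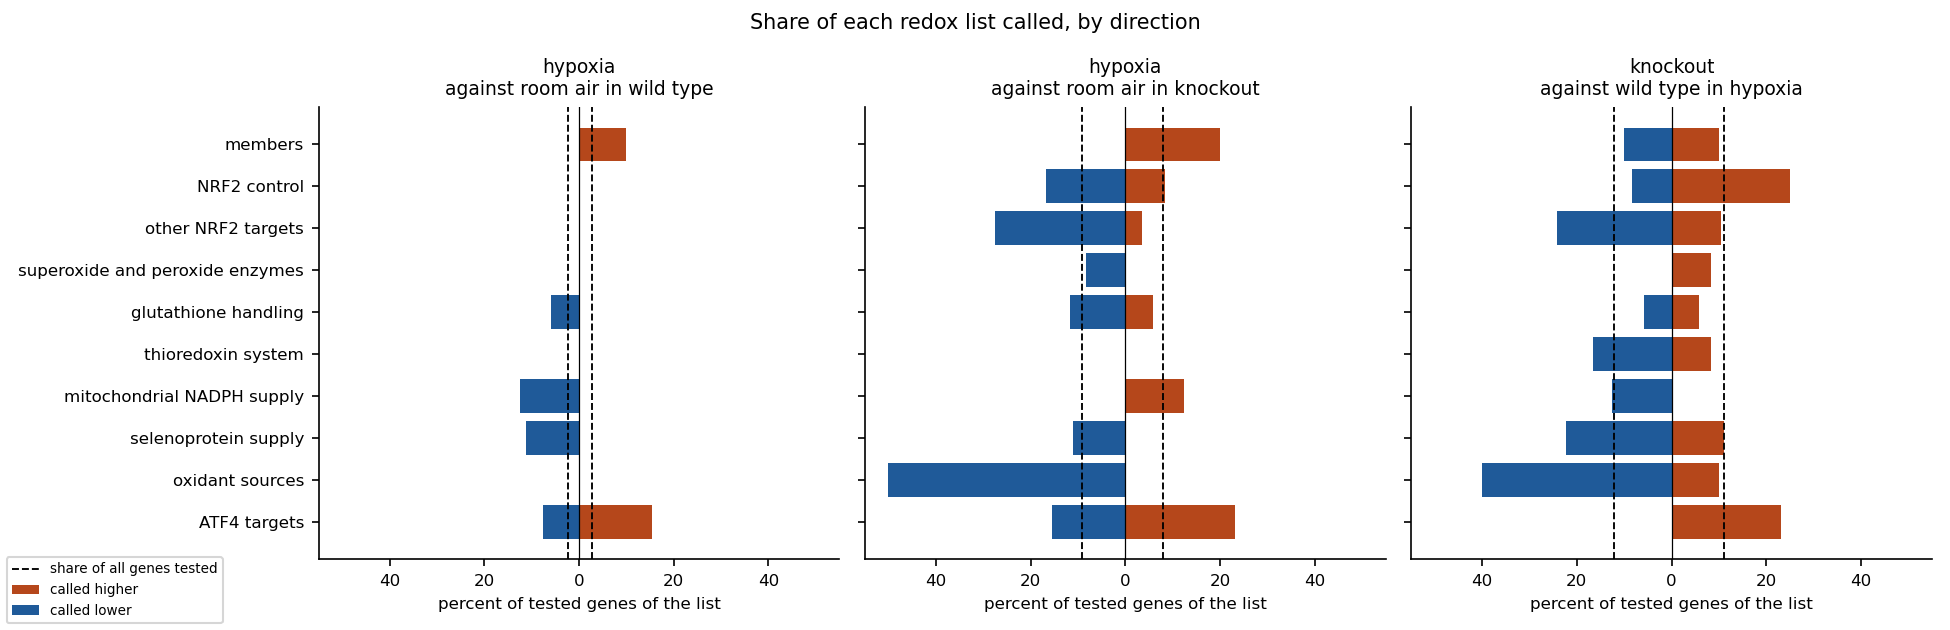
Percent of the tested genes of each list called higher (to the right) and lower (to the left) in 3 comparisons, with dashed lines at the share of all genes tested called in that direction. Of the oxidant source genes 50% were called lower for hypoxia in the knockout, where 9.10% of all genes were. The 10 members stand at 10% higher in wild type (1 gene) and 20% higher in the knockout (2 genes), where 2.67% and 7.94% of all genes were.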

How the data were processed

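The deposited values are raw read counts per gene from 20 libraries of whole lung, with 24062 genes and 5 lines that name no gene in each file. Per the labels' protocols, ribosomal RNA was removed from total RNA before libraries were built with a kit that keeps the strand. Per the submitters' processing notes, the authors used Trim Galore, TopHat2, HTSeq and the build mm10; their versions, the gene annotation and whether counting used strand were not given in the sources used here. CPM used the TMM-scaled library sizes. Library sizes and tests left those 5 lines out, and counts in genes made up 25.4% to 64.2% of counts in genes or in no gene. In 4 room air samples the labels give libraries A and B of one number, which were summed to give 16 samples, 4 per group; A and B differed by a chi-square of 2.46 to 3.51 per degree of freedom over 5000 genes, and no libraries were identical.

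Counts were filtered with filterByExpr (minimum count 10, minimum total count 15), scaled by TMM and fitted with edgeR 4.0.16 in R 4.3.3 (robust quasi-likelihood test, two-sided, one model over the 4 groups). The filter removed 8296 genes, and the biological coefficient of variation was 15.8%. SEs were derived from each estimate and its F value. P-values were adjusted by Benjamini-Hochberg over the 15766 genes tested, and 15761 remained in counts of calls once genes of the Y chromosome, Xist and Tsix were left out. The procedure was tested on simulated counts with known changes. DESeq2 1.42.0, limma 3.58.1 (voom), other scalings and filters, the A or B libraries alone, a GC correction, a replicate block, and leaving out each sample were alternatives, 29 in all. Leaving out the 3 samples with under 40% of reads in genes, or the 5 with other organ markers, was chosen after seeing the data.

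Gene coordinates and exon lengths came from GENCODE vM21 (GRCm38), 1-based, and promoters from RefSeq (GRCm38.p6). The genes and lists were chosen with earlier results of these data known. All 10 genes are named; of each other list, up to 3 called genes of smallest p per comparison were eligible, together with genes that serve as background of a member (Keap1, Slc3a2, Gsr, Sepp1, Sod1 and Gpx1 among them), and the 3 most correlated genes of each member, except that for Nqo1 only the first is given, as another is not reported here. Intervals and floors cover counting error only.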

Additional observations from a re-analysis of the deposited data

Results flagged for a closer look

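In wild type hypoxia, Slc7a11 in sample 3 stood at 9.341 CPM, apart from the other 3 samples of the group, which lay between 7.02 and 7.15 CPM. Its gap to the nearest sample was 0.945 of the group's range. Of 40 combinations of gene and group examined, 1 stood apart in this way, and chance alone marks about 1 in 20.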

How the results depend on the processing

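Of 10 members called for hypoxia in wild type (1 in the reported fit), the count was 2 with DESeq2, upper quartile scaling and the A libraries only, and 1 to 2 when single samples were left out. For hypoxia in the knockout (2) it was 3 with upper quartile scaling, which added Cat, 2 with library totals and with compared groups only, where Cat was called and Gclc was not, 1 with the B libraries only, 0 without the 5 samples with other organ markers, and 1 to 2 with single samples left out. For the genotypes in room air (0) it was 1 without the 3 samples with few reads in genes and 0 to 1 with single samples left out. For the genotypes in hypoxia (2) it was 1 with library totals only, with the GC trend removed and without those 3 samples, and 1 to 3 with single samples left out. For the difference between the effects it was 0 throughout; the fit on compared groups only cannot give it. The cause was not tested. Fitted values turned sign for Sod2 between genotypes with the GC trend removed (-0.062 in room air, -0.0006 in hypoxia), for Cat with hypoxia in wild type without the 3 samples (0.0052), and without the 5 samples for Sod3 with hypoxia in the knockout (-0.0119) and Slc7a11 between genotypes in room air (-0.0476). None of these was called. Other uncalled values turned sign only where both estimates lay within 1 SE of 0. Deviations of same-numbered samples from their group means had correlations from -0.33 to 0.46 over 24 pairs (median 0.107, 12 over 0.1), against a median of -0.0492 over 72 differently numbered pairs (19 over 0.1). The 4 same-numbered room air pairs of the genotypes were all positive, from 0.09 to 0.33. No comparison had every pair over 0.1, so the numbers were not taken to pair the samples. With a replicate block the counts of members called were 1, 2, 0, 2 and 0, as without it. Depth limits Nqo1 and Slc7a11 most, the members with the fewest counts (at least 110 and 128 in every sample).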
